A study of Mus musculus with 4 samples.

Results

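The genes described here are 10 genes known from natural killer (NK) cells and group 1 innate lymphoid cells (ILC1), measured in CCR6+ group 3 innate lymphoid cells (ILC3). They are Klrk1, Ncr1, Klrd1, Klrc1 and Klrc2, which encode receptors, Gzma, Gzmb and Prf1, which encode cytotoxic granule proteins, and Tbx21 and Eomes, which encode T-box transcription factors. They were chosen by name from the 19938 genes that the arrays measured with a probe set naming a single gene. All 10 had such a probe set, and each had exactly 1. RNA came from mesenteric lymph node cells of naive mice of the C57BL/6 strain, sorted as CD127+ CD90.2+ CCR6+ ST2-, and was hybridised to 4 arrays, numbered 1 to 4 as in the labels. The 4 samples form 1 group with no second condition or cell type, so levels were set against background and the spread between samples was described. Whether each sample is a separate animal, a pool or a repeat sort is not stated, so the spread may be technical, and the number of arrays limits the precision.

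NK cells and ILC1 kill or restrain other cells through a balance of activating and inhibitory receptors. Activating receptors carry charged residues in the membrane that bind small adaptor proteins, while inhibitory receptors carry their own inhibitory motif in the cytoplasmic tail. Killing itself uses granules in which perforin lets granzymes into the target cell. In mice, NKp46, encoded by Ncr1, and T-bet, encoded by Tbx21, are also known from a subset of ILC3, whereas CCR6 marks ILC3 that resemble lymphoid tissue inducer cells and that are known mostly to lack both.

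Promoter sequences are shown for 4 of the genes. Klrk1 and Ncr1 stood farthest above background, and Gzma and Klrc1 varied most between arrays. The letters are the 250 bases before the transcript start, 5′ to 3′, from RefSeq on GRCm38.p6, and capitals mark 2 motifs searched on both strands. The first is TGTGGT or its reverse complement ACCACA, a core known to be bound by RUNX factors, and the second is GTGTGA or its reverse complement TCACAC, a core known from T-box factors.
Klrk1 promoter, chr6:129623865-129624114, minus strand: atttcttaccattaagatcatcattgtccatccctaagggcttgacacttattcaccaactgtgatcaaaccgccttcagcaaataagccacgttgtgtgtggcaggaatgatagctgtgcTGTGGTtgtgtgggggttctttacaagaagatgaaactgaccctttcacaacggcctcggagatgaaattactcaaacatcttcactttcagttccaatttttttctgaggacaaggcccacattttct
Ncr1 promoter, chr7:4337465-4337714, plus strand: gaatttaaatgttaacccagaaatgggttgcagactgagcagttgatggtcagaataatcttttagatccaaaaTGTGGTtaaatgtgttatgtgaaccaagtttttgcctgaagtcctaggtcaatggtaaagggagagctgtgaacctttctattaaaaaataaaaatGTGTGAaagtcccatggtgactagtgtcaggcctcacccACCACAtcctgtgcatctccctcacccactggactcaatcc
Gzma promoter, chr13:113100982-113101231, minus strand: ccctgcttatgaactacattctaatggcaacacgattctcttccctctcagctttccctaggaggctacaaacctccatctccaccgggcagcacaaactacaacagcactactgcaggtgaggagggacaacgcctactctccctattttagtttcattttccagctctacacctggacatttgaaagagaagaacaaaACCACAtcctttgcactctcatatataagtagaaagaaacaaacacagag
Klrc1 promoter, chr6:129678974-129679223, minus strand: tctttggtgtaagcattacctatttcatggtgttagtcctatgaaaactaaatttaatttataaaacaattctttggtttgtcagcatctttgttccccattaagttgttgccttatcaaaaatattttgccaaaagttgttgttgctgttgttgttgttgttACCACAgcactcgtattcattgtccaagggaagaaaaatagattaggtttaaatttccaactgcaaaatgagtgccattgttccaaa
Of the 10 genes, 9 had a promoter in the RefSeq table, and the exception was Klrd1. The RUNX core was present in 7 of these 9 promoters, all but those of Tbx21 and Eomes, and in 14.05% of all 32851 promoter windows of 250 bases. Its position was 129 bases before the start in Klrk1, 176 and 41 in Ncr1, 50 in Gzma and 87 in Klrc1. The T-box core was present in 2 of the 9, Ncr1 at 80 bases before the start and Gzmb at 15, and in 12.3% of all windows. A match describes letters in this window only. Binding at these letters and any effect on the levels below were not tested.

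Levels are log2 values from robust multi-array average (RMA), a procedure that removes background, brings the arrays to a common scale and combines the probes of each set into 1 value. Probe sets bind with different strength, so a level of 1 gene does not rank it against another as an amount of RNA. Each gene was therefore ranked among 1241 genes of chemosensory receptors (for odours, pheromones, trace amines and bitter taste), whose median mean level was 4.25. A gene is called above background where its one-sided rank p, adjusted by the Benjamini-Hochberg method over all 19938 genes, was under 0.05, and the lowest mean so called was 6.37. A stricter reading asked for a value on every array above 7.42, the highest value on any array of 15 genes of other organs such as muscle and liver. Of these 15 genes 4 were themselves called, so a call below 7.42 carries little weight.

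The sort gate and the cell type were checked first. The genes of CD127, CD90 and CCR6 (Il7r, Thy1 and Ccr6) were called, and so were 9 of 9 measured ILC3 markers, among them Il23r, Kit and Ltb. Other lymphocyte markers were on the same arrays, where 46.2% of all named genes were called. T cell markers were called in 12 of 14 cases, averaging 7.41, 7.38, 7.65 and 7.47 on arrays 1 to 4, and 4 of them passed the stricter reading. B cell markers were called in 10 of 11 cases, with list means of 8.61, 7.76, 8.77 and 7.65, and 8 of them passed the stricter reading. Markers of monocytes, macrophages and dendritic cells gave 2 calls among 9 genes and averaged 6.16, 6.11, 6.19 and 5.83. In sorted bulk RNA, fewer cells of a type and less RNA per cell cannot be told apart.

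Of the 10 NK, ILC1 and cytotoxic genes, 5 (50.0%) were above background, against 46.2% of all named genes, so their share was near that of any gene. These were Klrk1, Ncr1, Klrd1, Tbx21 and Prf1, and 6 of the 10 had an unadjusted p under 0.05, as did 57.4% of all named genes. The same 5 genes were called by limma, which called 53.5% of all named genes, and by a percentile rule that asked for all 4 arrays to exceed the 95th percentile of background, which called 54.4%. Klrk1 alone passed the stricter reading, which 24.1% of all named genes passed. Gzma, Klrc1, Eomes, Gzmb and Klrc2 were not above background over the 4 arrays. The median of the 10 means was 6.26, against 6.16 for all named genes.

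**Figure D1:**
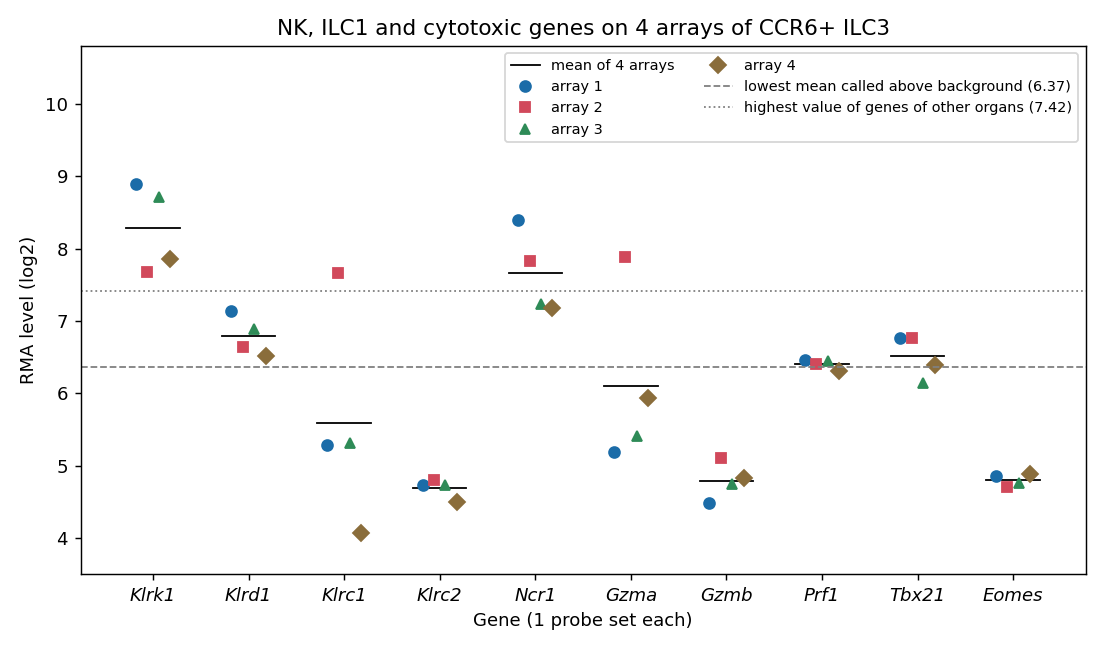
RMA level (log2) of the 10 genes on each of the 4 arrays, with the mean as a bar, the lowest mean called above background (6.37) dashed and the highest value of genes of other organs (7.42) dotted. Klrk1 lies above the dotted line on all 4 arrays, and Klrc1 and Gzma lie above it on array 2 only.

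**Figure D2:**
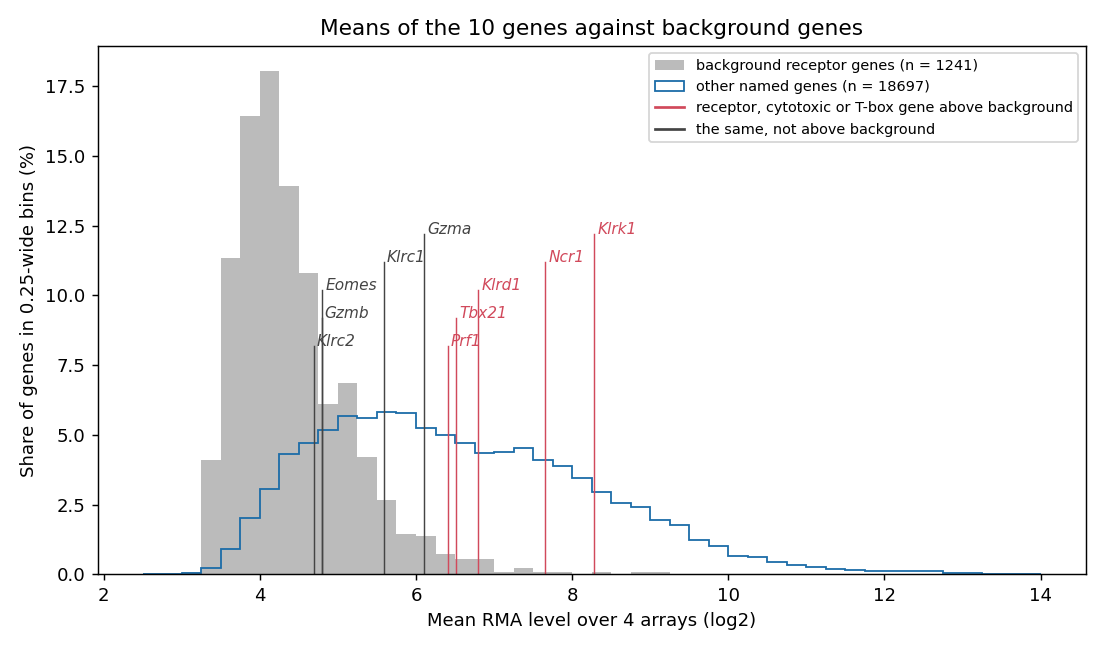
Distribution of mean levels (log2) of 1241 background receptor genes in grey and of the other named genes as an outline, in percent of each set, with the means of the 10 genes as vertical lines. Klrk1 at 8.28 and Ncr1 at 7.66 lie in the far upper tail of background, and Eomes, Gzmb and Klrc2 lie within its body.

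Of the 10 genes, Klrk1 and Ncr1, both of activating receptors, stood farthest above background. Klrk1 encodes NKG2D, which recognises stress-induced ligands related to MHC class I. Its level was 8.89, 7.67, 8.72 and 7.86 on arrays 1 to 4, a mean of 8.28 ± 0.61 (SD, n = 4). It was higher on arrays 1 and 3 than on arrays 2 and 4, with a 2.34-fold range, and 3 of the 1241 background genes had a mean at or above its own (adjusted p = 0.0142). B cell marker means were also higher on arrays 1 and 3, and this order was shared by 3 of the 10 genes (Klrk1, Klrd1 and Prf1), by 9 of 11 B cell markers, by 5 of 14 T cell markers and by 16.4% of all genes above background. The part of B cells or other cells in the Klrk1 level was not tested, and on arrays 2 and 4 alone, where B cell markers were lowest, Klrk1 was above background together with 9 of the 11 B cell markers.

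Ncr1 encodes NKp46, an activating receptor of NK cells, ILC1 and some ILC3. It was measured at 8.39, 7.83, 7.23 and 7.18, a mean of 7.66 ± 0.57 (SD, n = 4). Array 1 was highest and arrays 3 and 4 were lowest, 2.31-fold apart at the extremes. Only 4 background genes reached its mean (adjusted p = 0.0161), yet on arrays 3 and 4 it fell among the levels seen for genes of other organs. Both arrays 1 and 2 exceeded both arrays 3 and 4, an order also seen for Tbx21. It was seen in 17.0% of all named genes and in 17.3% of all genes above background.

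CD94 and its NKG2 partners were measured unevenly. Klrd1 encodes CD94, which pairs with NKG2A (Klrc1) to inhibit or with NKG2C (Klrc2) to activate, on binding the class Ib molecule Qa-1b. Klrd1 was at 7.14, 6.64, 6.89 and 6.51, a mean of 6.79 ± 0.28 (SD, n = 4), and was called (adjusted p = 0.0293) below the stricter line on every array. Like Klrk1, it was higher on arrays 1 and 3 than on the other arrays. Klrc1 was at 5.29, 7.66, 5.32 and 4.07, a mean of 5.58 ± 1.50, and was not called over the 4 arrays (adjusted p = 0.109). It was high on array 2, while its values on the other 3 arrays lay below the 95th percentile of background, 5.72 to 5.84 by array, so no fold between arrays is given. Klrc2 was at 4.74, 4.80, 4.74 and 4.50, within background on every array (adjusted p = 0.337). Klrc3, another gene of this family, was at 3.66 on array 2 and was not called either. Klrc1, Klrc2 and Klrc3 are close paralogs and the probe letters were not examined here, so cross-binding between them is uncertain, although the Klrc2 and Klrc3 probe sets were not high on array 2.

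Cytotoxic effector genes were low. Prf1, the gene of perforin, was at 6.46, 6.41, 6.45 and 6.31, the most even of the 10 genes with a mean of 6.41 ± 0.07 (SD, n = 4). It was just inside the call (adjusted p = 0.0476), it lay among the levels seen for genes of other organs, and the call was lost without array 3 (adjusted p = 0.0522), with olfactory receptors as the only background (0.0575) and on arrays 2 and 4 alone (0.0515). Gzmb, a granzyme that cleaves caspases, was at 4.48, 5.11, 4.74 and 4.82, with a mean of 4.79 ± 0.26 that 295 background genes reached. Gzma, a tryptase granzyme, was at 5.19, 7.89, 5.41 and 5.94, a mean of 6.11 ± 1.23 that was not called (adjusted p = 0.0659). It was high on array 2, while its values on the other 3 arrays lay below the lowest called mean of 6.37, so no fold between arrays is given. Without array 1 Gzma was called (mean 6.41, adjusted p = 0.0462), as it was on arrays 2 and 4 alone (mean 6.91, adjusted p = 0.0264). Both settings keep array 2. Without array 2 Gzma was not called (mean 5.51, adjusted p = 0.121), nor without array 3 (adjusted p = 0.0522) or without array 4 (adjusted p = 0.0611).

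The granzyme family as a whole was not above background. Of 10 granzyme genes measured, 0 were called by the rank test, 3 had an unadjusted p under 0.05, and 1 each was called by limma's test and by the percentile rule. Over all named genes these shares were 46.2%, 57.4%, 53.5% and 54.4%, in the same order. Their means ran between 3.94 for Gzmn and 6.11 for Gzma. Gzmk, the neighbour of Gzma in the RefSeq gene order on chromosome 13, was at 5.21, 5.46, 5.28 and 5.26 and stayed below the lowest called mean on every array, array 2 included. The 7 measured granzymes of the cluster on chromosome 14, which holds Gzmb, gave 0 calls.

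The T-box factors differed in detection. Tbx21, whose product T-bet drives ILC1 and is needed for NKp46 in ILC3, was at 6.77, 6.76, 6.14 and 6.39, a mean of 6.52 ± 0.31 (SD, n = 4). It was called (adjusted p = 0.0436), among the levels seen for genes of other organs, and not with olfactory receptors as the only background (adjusted p = 0.0527). Eomes, whose product is known to separate NK cells from ILC1, was at 4.85, 4.71, 4.76 and 4.89, a mean of 4.80 ± 0.08. It was even across arrays and within the body of background, where 289 background genes reached its mean (adjusted p = 0.292).

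The 10 genes varied between arrays to very different extents. The median of their SDs was 0.29 log2 units, against 0.11 for all named genes and 0.17 for genes above background. Klrc1 had a larger SD than 99.9% of all named genes, Gzma than 99.8%, Klrk1 than 98.5% and Ncr1 than 98.2%, whereas Prf1 had a larger SD than 30.8% and Eomes than 37.3%. Without array 2 the SD of Gzma was 0.39 and that of Klrc1 was 0.72, against 1.23 and 1.50 with it. Klrc1 and Gzma ranked 1 and 3 among all 19938 genes for excess on array 2 over the next highest array. Only 15 genes exceeded it by more than 1 log2 unit on array 2, against 27 on array 1, 60 on array 3 and 24 on array 4, and none of the 10 genes did so on arrays 1, 3 or 4. Among the other genes in that set, chosen here after their values were seen, were Lif, Arg1, S1pr3 and an immunoglobulin kappa variable gene, Igkv8-30. Arg1, an arginase gene known from ILC2 and myeloid cells, was at 6.83, 8.74, 7.63 and 7.48. Among marker lists, the 7 NK cell and ILC1 markers outside the 10 genes, 4 of them called, averaged 6.73, 7.14, 7.11 and 6.69 on arrays 1 to 4, higher on arrays 2 and 3 than on the others. Of these markers, Klrb1c varied little (SD 0.05), and Itga1, Itga2 and Klra8 were those not called. Death ligands and NK cytokines averaged 6.82, 7.26, 7.16 and 6.997, and were highest on array 2. Ccl5 and Xcl1 belong to both lists, so their means are not separate observations. T cell markers averaged 7.38 on array 2, the lowest of the 4 arrays, and B cell markers 7.76, the next to lowest. The part of NK cells, ILC1 or other cells in the array 2 levels was not tested.

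**Figure D3:**
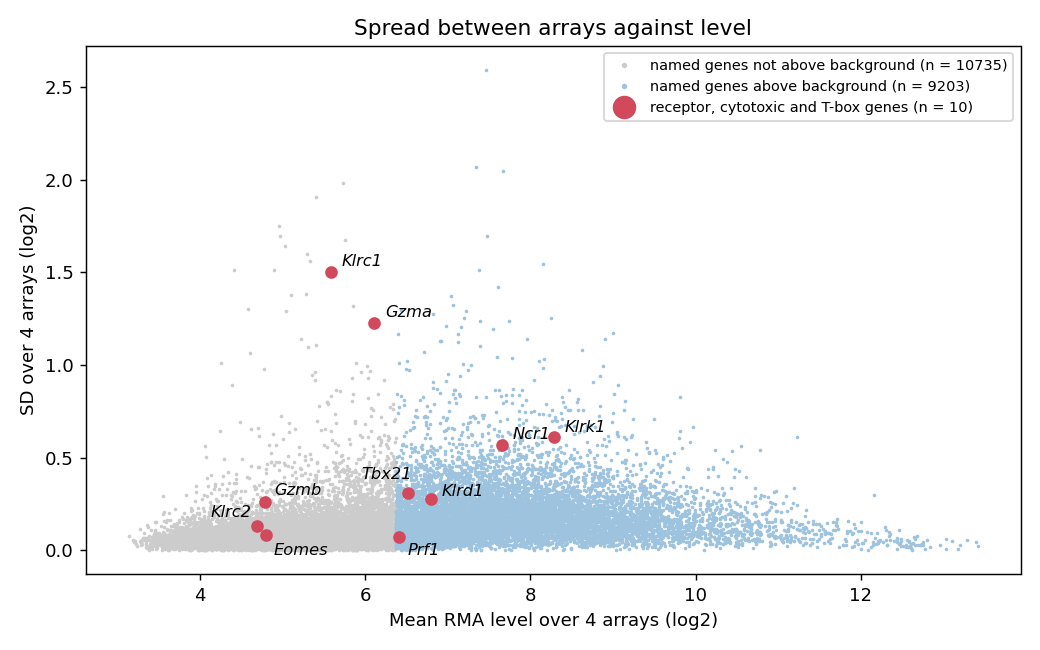
SD over the 4 arrays (log2) against mean level (log2) for all named genes, grey where not above background and blue where above, with the 10 genes in red. Klrc1 and Gzma lie near the upper edge, with SDs of 1.50 and 1.23, while Prf1, Eomes and Klrc2 lie among genes of small spread.

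**Figure D4:**
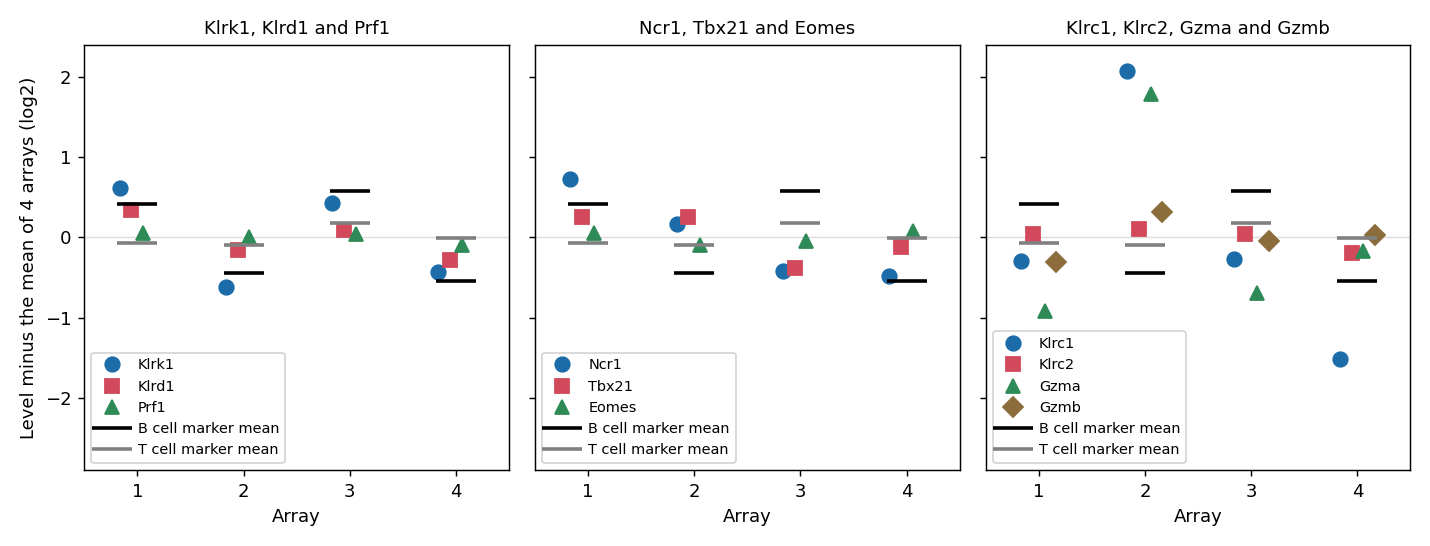
Level on each array minus the mean of the 4 arrays (log2) for 3 sets of the genes, with the means of the B cell and T cell marker lists as horizontal marks. Klrk1 and Klrd1 are positive on arrays 1 and 3, where the B cell marker mean is also positive, Ncr1 and Tbx21 are positive on arrays 1 and 2, and Klrc1 and Gzma stand out on array 2.

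Klrk1, Klrd1, Klrc1 and Klrc2 lie together on chromosome 6 with other lectin-like receptor genes, in the NK gene complex, while Ncr1 lies on chromosome 7. In the stretch of the RefSeq gene order from Klre1 to Klra2, 3 of 16 measured genes were called, which were Klrd1, Klrk1 and the microRNA gene Mir680-1. In the neighbouring stretch from Klrb1a to Gabarapl1, 8 of 23 were called, among them Klrb1b at 12.05 ± 0.05, Klrb1f at 11.23 ± 0.11 and Clec2i at 10.37 ± 0.22 (SD, n = 4 each). Both counts stand beside 46.2% of all named genes called. Of 6 singly named Klra (Ly49) genes, which encode class I receptors of mouse NK cells, 0 were called by the rank test, by limma or at an unadjusted p under 0.05, and their means ran between 3.73 and 4.05. Over all named genes, these rules called 46.2%, 53.5% and 57.4%. Klrk1 and Klrd1 were thus called between neighbours that were not, Klre1 at 4.14 ± 0.10 and Klrc3 at 3.56 ± 0.13.

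Genes that work with these receptors were examined in 7 lists, whose counts stand beside 46.2% of all named genes called. NK adaptors and signalling genes were called in 14 of 18 cases. The 3 adaptors that follow were called and passed the stricter reading. Hcst, which encodes DAP10 of NKG2D, was at 10.96 ± 0.07, Tyrobp, which encodes DAP12, at 10.61 ± 0.40, and Fcer1g, the FcR gamma chain that serves NKp46, at 12.08 ± 0.10 (SD, n = 4 each). Lat was at 10.03 ± 0.12, Plcg2 at 9.27 ± 0.19 and Inpp5d at 9.16 ± 0.21. Plcg1 at 6.30 ± 0.17, Sh2d1a, the SAP adaptor, at 5.73 ± 0.18 and Sh2d1b1 at 4.71 ± 0.09 were not called. Lat and Cd247 of this list also count among the T cell markers above. Genes of this list also serve receptors of myeloid, B and T cells, and the part of those cells in the levels was not tested.

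Other NK receptors were called in 17 of 30 cases, and 11 passed the stricter reading. Besides Klrb1b and Klrb1f, Cd7 was at 11.91 ± 0.09, Cd96 at 10.38 ± 0.10, Lilrb4a at 10.05 ± 0.26 and Cd226, the DNAM-1 receptor, at 9.36 ± 0.16 (SD, n = 4 each). Tigit, the inhibitory counterpart of CD226, was at 5.98 ± 0.12, Klrg1 at 5.15 ± 0.13 and Crtam at 4.71 ± 0.05, and these were not called. Ligands of NK receptors were called in 4 of 8 cases. Clec2d, a ligand of Klrb1 receptors, was at 10.96 ± 0.25, Cd48, a ligand of the receptor 2B4, at 8.85 ± 0.17, H60b, a ligand of NKG2D, at 7.86 ± 0.32 and Cadm1, a ligand of CRTAM, at 6.46 ± 0.07. Pvr at 5.80 ± 0.23 and Nectin2 at 5.52 ± 0.19, ligands of CD226 and TIGIT, were not called, nor was Cdh1, a ligand of KLRG1, at 5.297 ± 0.010.

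Genes of the granule machinery were called where the granzymes that it carries were not. Granule and exocytosis genes were called in 16 of 25 cases, while the 8 granzymes in that list, and its serpin Serpinb9b, were the ones not called. Srgn, the proteoglycan core of granules, was at 11.12 ± 0.13, Lamp1 at 10.65 ± 0.05, Rab27a, which docks granules, at 9.49 ± 0.26, Stxbp2 at 9.13 ± 0.11, Ctsc, which activates granzymes, at 9.02 ± 0.24 and Serpinb6b at 8.76 ± 0.22 (SD, n = 4 each). Gzmc at 6.04 ± 0.47, Gzmm at 5.99 ± 0.05 and Gzme at 5.44 ± 0.24 led those not called. Many granule genes also serve lysosomes in other cells.

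Death ligands and NK cytokines were called in 4 of 10 cases. Lta was at 9.998 ± 0.315, Tnf at 9.69 ± 0.26, Ccl5, a chemokine of NK and memory T cells, at 8.96, 10.31, 10.69 and 9.27 on arrays 1 to 4, and Xcl1, which attracts cross-presenting dendritic cells, at 7.95, 8.60, 8.40 and 7.30. Ccl5 and Xcl1 were both higher on arrays 2 and 3 than on arrays 1 and 4. The share of all genes with this order was not computed. Tnfsf10, which encodes TRAIL of ILC1, at 6.27 ± 0.46, Csf2 at 6.26 ± 0.56 and Ifng at 5.62 ± 0.06 were not called.

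Factors known from NK and ILC1 development were called in 20 of 22 cases, but most of them are shared with ILC3. Id2 was at 11.54 ± 0.12, Runx3 at 10.23 ± 0.20, Ets1 at 10.02 ± 0.09, Irf2 at 9.92 ± 0.14, Gata3 at 9.72 ± 0.12 and Tox at 9.60 ± 0.18 (SD, n = 4 each). Prdm1, which encodes Blimp-1, was at 5.30 ± 0.15 and Klf12 at 4.43 ± 0.24, and neither was called. Cytokine receptors and homing molecules of NK cells and ILC1 were called in 18 of 24 cases. Il18r1 was at 11.41 ± 0.11, Cxcr6 at 10.78 ± 0.10, Ifngr1 at 10.61 ± 0.14, Il2rb, the receptor chain for IL-15, at 10.48 ± 0.12, Stat4 at 10.03 ± 0.09 and S1pr1 at 9.60 ± 0.17. The integrins Itgae at 5.96 ± 0.27 and Itga2, which encodes CD49b of NK cells, at 5.63 ± 0.26 were not called, nor was S1pr5, an exit receptor of NK cells, at 5.84 ± 0.23.

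**Figure D5:**
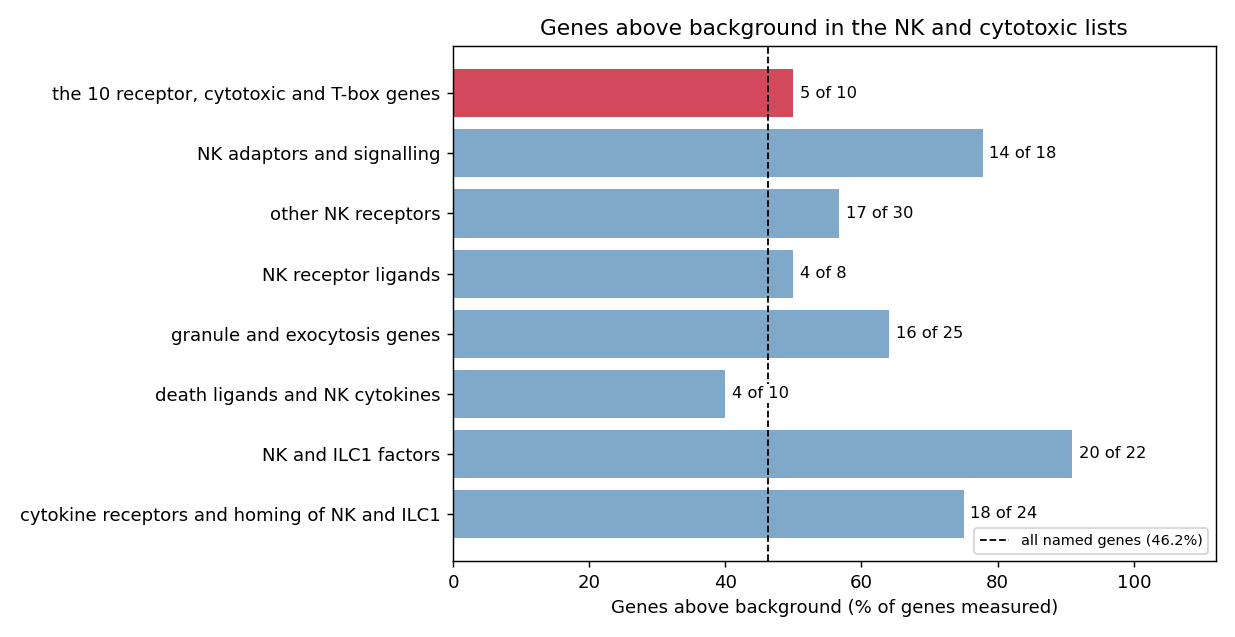
Share of measured genes above background (%) for the 10 genes in red and for the 7 lists in blue, with the counts beside the bars and the share of all named genes (46.2%) dashed. The 10 genes at 50.0% lie close to the dashed line, and NK and ILC1 factors (20 of 22) and adaptors (14 of 18) lie well to its right.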

How the data were processed

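Total RNA of 4 samples of sorted CCR6+ ILC3, all in 1 group, was measured on 1-colour arrays. The deposited values are log2 levels for 35556 probe sets, made by the authors with RMA per the submitters' processing notes; its version is not given in the sources used here. All columns belonged to the 4 samples, and array medians lay between 5.99 and 6.03. RMA's median polish can give equal values on several arrays, as for Klrc2 on arrays 1 and 3, which makes an SD too small. Background correction could not be varied, as no scanner files were used.

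Probe sets were named by GEO's platform annotation, with symbols updated through Entrez identifiers in the RefSeq table of GRCm38.p6. A single symbol was given for 21789 probe sets, several for 1621, which stayed unnamed, and 12146 were not listed. For genes with several probe sets the one with the highest mean was used. The rank p was 1 plus the number of background genes at or above the mean, over 1 plus 1241, and could not fall below 0.000805. Of the background genes 27 were called. The calculation was tested on simulated levels, drawn from background means with known shifts added and the same spread for all genes. That tests the calculation only, not whether the background genes suit other probe sets. Limma 3.58.1 (R 4.3.3) gave an alternative, a one-sided moderated test against the 95th percentile of background means, 5.82.

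The 10 genes and all lists were chosen with earlier results of these data known. Named genes were the 10 genes, the sort gate genes, up to 6 called and up to 3 uncalled genes of each NK list by highest mean, and the 4 highest of each list of other cells. Any other gene was named after its values were seen. Alternatives were other rules for a call, olfactory receptors as the only background, other probe set rules, array centring and leaving out each array. No correlation over 4 arrays was computed.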

Additional observations from a re-analysis of the deposited data

Results flagged for a closer look

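Results with 1 array far from the other 3 were looked for with Dixon's test in 102 sets of values, each set a named gene or a list mean. Of these, 8 passed its limit for 4 samples, and chance gives about 1 in 20. None of the 10 receptor, cytotoxic and T-box genes passed, Gzma at 0.722 and Klrc1 at 0.652 included, because their other arrays also differed. The number after each gene is the gap to the nearest array over the whole range.

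Array 3 was the low one for Plcg2 at 9.38, 9.38, 8.995 and 9.33 on arrays 1 to 4 (0.871), for Klrb1b at 12.08, 12.08, 11.97 and 12.07 (0.855), for Runx3 at 10.35, 10.34, 9.92 and 10.29 (0.862) and for Il2rb at 10.54, 10.53, 10.31 and 10.56 (0.887). It was the high one for Cd3g at 8.59, 8.47, 9.51 and 8.52 (0.888) and Adgre1 at 6.11, 6.15, 7.003 and 6.03 (0.873). The mean of the NK adaptor and signalling list was 8.11, 8.11, 8.23 and 8.12 (0.884), highest on array 3. That of the NK and ILC1 factor list was 8.25, 8.27, 8.25 and 8.15 (0.848), lowest on array 4.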

How the results depend on the processing

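The count of 5 called genes among the 10 did not change with the percentile rule or limma. Centred arrays could not change any call, because centring leaves each mean over the 4 arrays as it was. Other probe set rules could not change the values of the 10 genes, which have 1 probe set each, but only the adjustment over all genes. The count was 3 with olfactory receptors as the only background, where Prf1 and Tbx21 were lost. It was 1 above all genes of other organs, where Klrk1 alone was left. Leaving out 1 array gave 4 to 6, as Prf1 was lost without array 3 and Gzma was called without array 1. Arrays 2 and 4 alone, a choice made after seeing the data, gave 5, with Gzma in and Prf1 out. Above all genes of other organs, the counts were 11 for other NK receptors, 4 for T cell markers, 4 for NK cell and ILC1 markers (9 of 15 otherwise) and 1 for monocyte, macrophage and dendritic cell markers. The last list gave 5 with the percentile rule and 4 with limma, and 2 to 4 without 1 array. The remaining 136 list counts stayed within 1.5 times the first value, but those with centred arrays among them could not differ. With centred arrays the SD of Gzma was 1.22 and that of Klrc1 1.49. Without 1 array the SD of Gzma was 0.39 to 1.50 and that of Klrc1 0.72 to 1.83. Each SD of the 10 genes moved by less than itself in these settings. Leaving out 1 array could hardly break that limit, so no stability is read from it. The cause of these changes was not tested beyond the arrays and genes each setting leaves out. No paired analysis was possible because there is 1 group. Signal over background limits Prf1 and Tbx21, whose means of 6.41 and 6.52 lay close to the lowest called mean of 6.37.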
